A study of Mus musculus with 23 samples.

Results

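Interferon-stimulated genes, the genes that cells switch on when a type I interferon reaches its receptor, were followed in bulk RNA-seq of CD11b+ microglia from the hippocampus of female mice. The members were 44 genes listed by symbol, all present in the count table of 18876 genes, and 44 of 44 passed the filter of at least 5 counts in at least 3 samples that left 18759 genes for testing. Every mouse, controls included, was Slc11a2 fl/fl;Cx3cr1 Cre-ERT2+/- on a mixed 129S;C57BL/6J background. Slc11a2 encodes the iron importer DMT1, and the Cx3cr1 promoter drives Cre in microglia and other macrophages. Slc11a2KD mice received 4 mg tamoxifen by gavage on 5 consecutive days at 5 to 6 months of age whereas Control mice had corn oil alone; effects of the drug and of the deletion cannot be told apart. Mice were killed between 15 and 18 months of age. The APP/PS1 mice were hemizygous for transgenes of a mutant chimeric mouse/human amyloid precursor protein and a mutant presenilin, and their WT littermates carried neither. The groups were Control WT (n = 6), Control APP/PS1 (n = 6 used of 7), Slc11a2KD WT (n = 5) and Slc11a2KD APP/PS1 (n = 5), named below by group and 4-digit library number. The study's methods call the libraries of a group biological replicates, and p-values measure the spread between these libraries.

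Several libraries stand apart and touch the results below. Control libraries are numbered 5 to 17, and Slc11a2KD libraries 1 to 4 and 18 to 23, so Control against Slc11a2KD cannot be told apart from those runs of numbers. Slc11a2KD WT has 3 libraries numbered 1 to 4 and 2 numbered 18 to 23, and Slc11a2KD APP/PS1 has 1 (0004) and 4. Control APP/PS1 0010 was left out of the comparisons. Total counts ran from 31128643 to 54872491. Mitochondrial transcripts made up 1.33% to 2.27% of counts in Control WT and 0.990% to 1.56% in Control APP/PS1. In Slc11a2KD WT and Slc11a2KD APP/PS1 they made up 1.56% to 2.73% and 0.996% to 1.80%. The part of this share in the member results was not tested. Markers of microglia, the labelled cell type, summed to between 27376 and 41903 CPM, counts scaled to a common library size in every sample used (9 of 10 listed genes in the table), against 1.30 to 2026 CPM for 14 markers of choroid plexus epithelium and 3.13 to 16.2 CPM for 8 neuronal markers. Ttr, the main transcript of choroid plexus epithelium, had a median of 0 CPM in Control WT but a highest value of 996 CPM, and reached 417 and 378 CPM in Slc11a2KD WT and Slc11a2KD APP/PS1 against 0.588 CPM in Control APP/PS1. Slc11a2, read over the whole gene, did not check the knockdown: it was 35.1 ± 5.13 CPM in Control WT, 43.2 ± 3.93 in Control APP/PS1, 34.2 ± 4.75 in Slc11a2KD WT and 56.5 ± 13.5 in Slc11a2KD APP/PS1 (SD). The paper reports the knockdown from part of the gene instead, as lost expression across certain exons in the RNA-seq and by RT-qPCR of isolated microglia.

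Type I interferons bind a shared receptor whose kinases activate the transcription factor complex ISGF3, which holds STAT2 and IRF9. ISGF3 binds the interferon-stimulated response element, whose core letters are GAAA, any 2 bases and GAAA again, and transcribes genes that degrade viral RNA, block translation, present antigen and amplify the pathway itself. Interferon gamma instead acts mainly at gamma-activated sites, with the letters TTC, any 3 bases and GAA. In microglia around amyloid plaques and in aged brain, raised interferon-stimulated genes are a known state.

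The response element letters (GAAA NN GAAA), searched on both strands in the 250 bases before the canonical start of each gene (GENCODE M39 on GRCm39, the build of the counts), were in the promoters of 16 of 44 members (36.4%). They were in 462 of 14309 promoters of protein-coding genes tested (3.23%). The gamma-activated site letters (TTC NNN GAA), which read the same on both strands, were in 6 members (13.6%) and in 949 of all promoters (6.63%). Ranked by log2 fold change among the members that rose with APP/PS1 in Slc11a2KD mice (described below), the first 8 were Oas1a, Ifi27l2a, Zbp1, Oasl2, Ifit2, Bst2, Usp18 and Isg15. Of these, 4 held the response element letters in this window and 4 (Oas1a, Ifi27l2a, Oasl2 and Ifit2) did not and are not printed. The promoters with the letters are shown 5′ to 3′ in the direction of the gene, with every match to the response element letters on either strand in capitals; overlapping matches run together. They lie at chr2:173060725-173060974 for Zbp1, chr4:156285304-156285553 for Isg15 and chr8:71990115-71990364 for Bst2, all on the minus strand, and at chr6:121222607-121222856 for Usp18 on the plus strand.
Zbp1: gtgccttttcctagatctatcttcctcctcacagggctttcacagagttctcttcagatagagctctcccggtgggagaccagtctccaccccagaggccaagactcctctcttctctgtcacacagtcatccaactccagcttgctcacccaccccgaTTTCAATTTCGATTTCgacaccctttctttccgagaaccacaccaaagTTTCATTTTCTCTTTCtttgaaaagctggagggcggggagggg
Isg15: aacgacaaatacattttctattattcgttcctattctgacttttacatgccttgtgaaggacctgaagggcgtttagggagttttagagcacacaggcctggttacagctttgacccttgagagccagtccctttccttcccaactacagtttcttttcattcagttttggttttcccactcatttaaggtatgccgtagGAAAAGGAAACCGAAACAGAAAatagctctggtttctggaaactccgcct
Usp18: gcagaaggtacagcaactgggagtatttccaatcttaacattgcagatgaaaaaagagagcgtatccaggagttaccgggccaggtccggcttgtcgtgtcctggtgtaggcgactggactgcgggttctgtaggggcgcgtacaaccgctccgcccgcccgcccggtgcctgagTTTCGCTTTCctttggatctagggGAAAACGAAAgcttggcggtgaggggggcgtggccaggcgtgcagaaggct
Bst2: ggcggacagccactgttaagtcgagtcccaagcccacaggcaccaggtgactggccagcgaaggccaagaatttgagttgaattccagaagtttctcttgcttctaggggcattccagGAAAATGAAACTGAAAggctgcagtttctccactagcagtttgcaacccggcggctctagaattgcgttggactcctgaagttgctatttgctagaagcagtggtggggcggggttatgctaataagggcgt

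Zbp1 held 4 matches in 2 stretches, the nearest beginning 37 bases upstream of the start of transcription. Isg15 held 3 overlapping matches, the nearest 38 bases before the start. Usp18 held 2 separate matches at 75 and 51 bases, and Bst2 held 2 overlapping matches at 132 and 126 bases. In Zbp1 and Bst2 a match to the gamma-activated site letters overlapped these. A match is a description of the sequence and was not tied to binding here.

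Many members are neighbours in the genome. Ifit2, Ifit3 and Ifit1 lie in a row on chromosome 19, Gbp7, Gbp3 and Gbp2 on chromosome 3, Slfn5, Slfn8 and Slfn2 on chromosome 11, and Phf11b and Phf11d 5844 bases apart on chromosome 14. Rsad2 and Cmpk2 on chromosome 12 point away from each other with 12752 bases between their starts. Dtx3l and Parp9 on chromosome 16 also point away from each other, and their exons overlap by 458 bases on opposite strands. The strand setting of the counting is not given in the sources used here, so reads in that overlap cannot be told apart, and the same holds for Ifi35 with Vat1 (620 bases) and Ifi27l2a with Ifi27 (163 bases). Irf9 shares 282 bases with Rnf31 on its own strand, and Rtp4 1129 bases with the non-coding Gm45338. Members with close copies (Ifit3, Oas1a, Phf11b, Phf11d, Slfn8, Ifi204, Trim30a and the Gbp genes) may share reads with them, and their values are uncertain to that extent.

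Levels per length spanned 3 orders of magnitude. By CPM per kilobase of exon, averaged over 22 samples, the most abundant members were Ly6e (146), Bst2 (127) and Ifi27l2a (63.3). Ly6e and Bst2 encode lipid-anchored surface proteins that restrict virus entry and virus release, and Ifi27l2a encodes a small hydrophobic protein. The least abundant were Oas2 (0.0991), Ifit1 (0.213) and Mx1 (0.232). Oas2 synthesises the 2-5A messenger that activates RNase L, Ifit1 binds viral RNA caps, and Mx1 is a dynamin-like GTPase that is truncated in many laboratory strains, C57BL/6 among them. Mx1 had no count in 4 of 22 libraries, and Oas2 and Samd9l in 2 each.

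**Figure D1:**
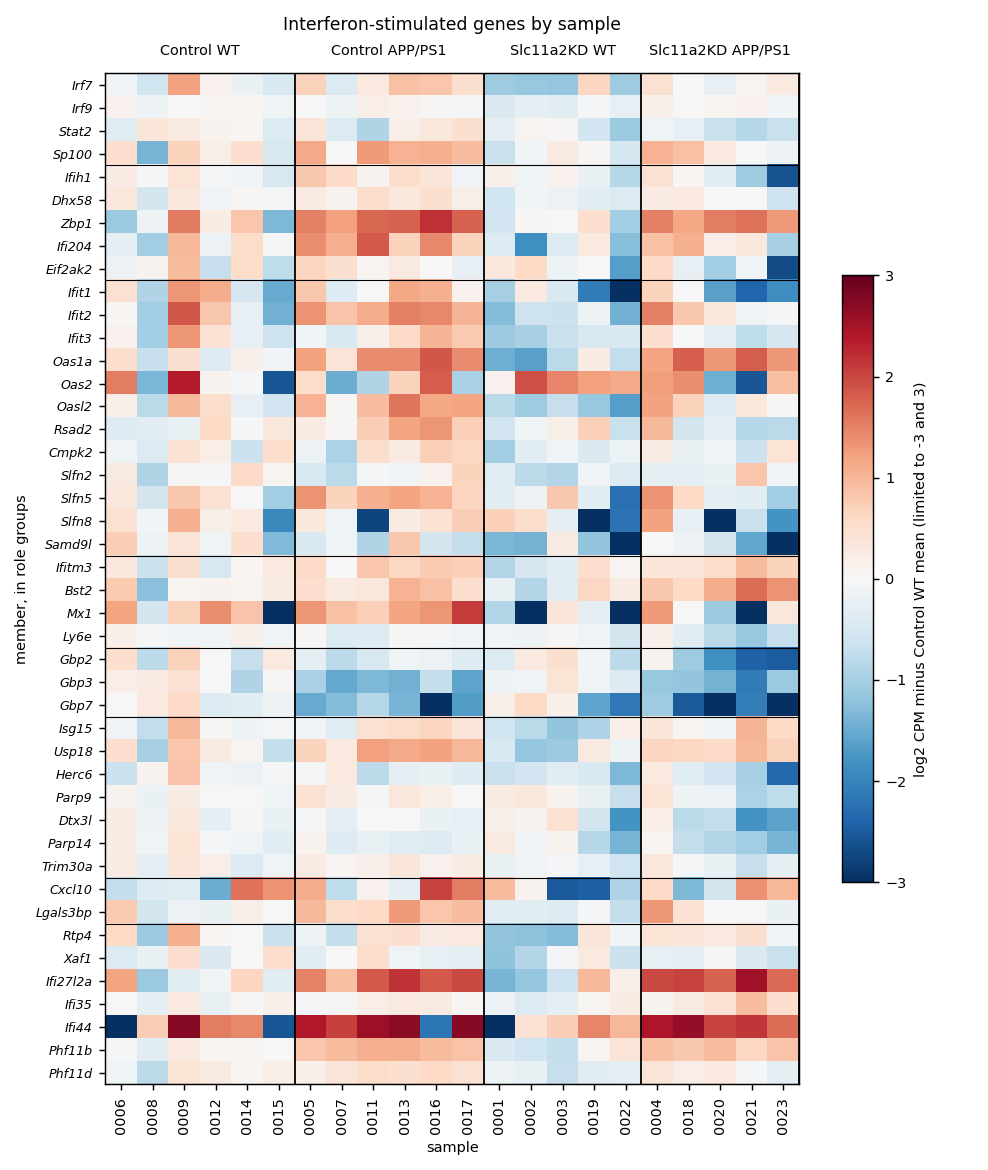
Heat map of the 44 members (rows, in role groups separated by lines) in the 22 samples (columns, by group); colour is log2 CPM minus the Control WT mean of that gene, limited to -3 and 3. Sample 0009 was the highest Control WT sample for 30 of 44 members and 0007 the lowest Control APP/PS1 sample for 27.

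Samples of a group differed in their level over the whole list. To describe each sample, each member's log2 CPM was set against its Control WT mean, and the median over the 44 members was taken in each sample. Control WT ran from -0.47 (0008) to 0.48 (0009), with a median of 0.04. Control APP/PS1 ran from 0.02 (0007) to 0.62 (0016), median 0.45. Slc11a2KD WT was at -0.44, -0.26, -0.22, -0.12 and -0.68 in 0001, 0002, 0003, 0019 and 0022, all below 0. Slc11a2KD APP/PS1 was at 0.46, 0.02, -0.19, -0.12 and -0.24 in 0004, 0018, 0020, 0021 and 0023. Control APP/PS1 and Slc11a2KD WT did not overlap, and every other pair of groups did. Library 0004, the 1 Slc11a2KD APP/PS1 library outside numbers 18 to 23, stood above its group, with the highest value there for 25 of 44 members. In Control WT, 0009 was highest for 30 members and 0008 lowest for 21.

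**Figure D2:**
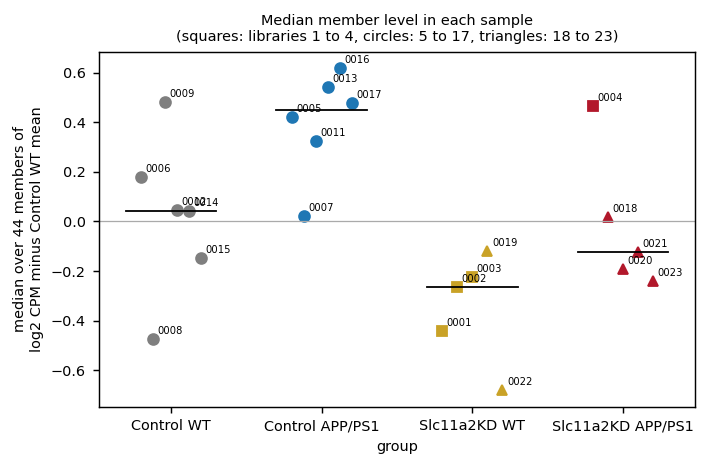
Median over 44 members of log2 CPM minus the Control WT mean, 1 point a sample; horizontal lines are group medians and marker shapes give the run of library numbers. Control APP/PS1 had the highest group median (0.45) and Slc11a2KD WT the lowest (-0.26), and these ranges did not overlap, while those of every other pair of groups did.

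The first comparison asked how the members differ with the APP/PS1 genotype in mice that kept Slc11a2. In Control mice, 6 members rose in APP/PS1 and 2 fell (edgeR quasi-likelihood test, Benjamini-Hochberg adjusted p under 0.05 over all genes). Across all genes tested, 5.99% rose and 4.48% fell. The median log2 fold change over the 44 members was 0.22 against -0.02 over all genes, and 31 of 44 members had a value above 0 against 48.2% of all genes. The members' median was 0.43 without Control WT 0009, 0.34 without Control APP/PS1 0007 and 0.145 without Control WT 0008. The groups did not overlap for 1 member in each direction, Phf11b upward and Gbp7 downward, against 5.33% and 3.03% of all genes. These are whole-sample levels, so a change in the share of cells that express a gene and a change in RNA per cell cannot be told apart.

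Oas1a, a 2-5A synthetase that senses double-stranded RNA, lies on chromosome 5 (chr5:121031070-121046449). It ran from 7.89 to 18.3 CPM in Control WT (median 13.2) and from 16.7 to 46.4 CPM in Control APP/PS1 (median 34.1). Only the lowest APP/PS1 sample, 0007, lay within the WT range. The log2 fold change was 1.28 ± 0.28 (SE, edgeR adjusted p = 0.00325). Its relative Oasl2, which resembles a 2-5A synthetase joined to ubiquitin-like domains, ran from 4.42 to 15.1 CPM (median 7.498) in Control WT and from 7.87 to 23.8 CPM (median 16.7) in Control APP/PS1. The log2 fold change of Oasl2 was 0.94 ± 0.30 (adjusted p = 0.0480), the weakest of the increases, and the call was lost on leaving out 9 of the 12 Control libraries singly (0006, 0008, 0014, 0015, 0005, 0011, 0013, 0016 or 0017), with log2 fold changes between 0.80 and 0.96 there.

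Ifi27l2a ran from 13.5 to 66.0 CPM in Control WT (median 25.3) and from 54.2 to 131 CPM in Control APP/PS1 (median 105). Its log2 fold change of 1.56 ± 0.36 was the largest increase among the members (adjusted p = 0.00570). Zbp1, a sensor of Z-form nucleic acid that can start necroptosis, ran from 0.857 to 6.69 CPM (median 2.33) and from 5.30 to 10.4 CPM (median 7.63) in the same groups. Its log2 fold change was 1.39 ± 0.38 (adjusted p = 0.0184). Just 1 Control WT library, 0009, reached the APP/PS1 range for Zbp1. Without the Control WT libraries high in Ttr (0012 and 0015) the log2 fold change of Zbp1 was 1.13 and the call was lost.

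Phf11b, an interferon-induced gene with a PHD-type zinc finger, ran from 19.7 to 30.9 CPM in Control WT (median 25.4) and from 44.9 to 53.4 CPM in Control APP/PS1 (median 48.4). The groups were apart in every sample, and the log2 fold change was 0.95 ± 0.15 (adjusted p = 0.000124). Lgals3bp, a secreted glycoprotein that binds galectins, ran from 169 to 431 CPM (median 232) and from 358 to 598 CPM (median 459). Its log2 fold change was 0.81 ± 0.23 (adjusted p = 0.0221). The highest WT sample, 0006, lay inside the APP/PS1 range, and the call was lost without 0008, 0009, 0012 or 0013, at 0.71 to 0.76.

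The members that fell were guanylate-binding proteins, GTPases that attack membranes of intracellular pathogens and respond to interferon gamma. Gbp3 (chr3:142265731-142278979) ran from 10.98 to 28.2 CPM in Control WT (median 22.5) and from 6.84 to 12.7 CPM in Control APP/PS1 (median 7.83). A single WT sample, 0014, reached the APP/PS1 range, and the log2 fold change was -1.29 ± 0.22 (adjusted p = 0.000226). Gbp7, next to it (chr3:142236044-142255910), ran from 7.93 to 15.5 CPM (median 10.0) and from 1.12 to 5.76 CPM (median 3.81). Its log2 fold change was -1.56 ± 0.44 (adjusted p = 0.0232), and the call was lost without 0009 (-1.43) or 0016 (-1.37). The neighbouring Gbp2 did not pass (log2 fold change -0.47 ± 0.37, adjusted p = 0.501).

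By role, 4 of 4 transcription factors (Irf7, Irf9, Stat2 and Sp100) had log2 fold changes above 0, between 0.03 and 0.81, and none passed. Of the 5 nucleic acid sensors, Zbp1 passed, and the others (Ifi204, Ifih1 or MDA5, Dhx58 or LGP2, and the kinase Eif2ak2 or PKR) were between 0.10 and 1.11. Among the 12 RNA and nucleotide effectors, Oas1a and Oasl2 passed and the range was -0.45 to 1.28. Of the membrane and capsid restriction genes (Ifitm3, Bst2, Mx1 and Ly6e) none of 4 passed (range -0.14 to 0.75). Of the 7 enzymes of ISG15, ubiquitin and ADP-ribose transfer none passed (range -0.28 to 0.83); Usp18, which removes ISG15 and damps receptor signalling, was at 0.83 ± 0.27 with an adjusted p of 0.054. Of 2 secreted proteins Lgals3bp passed and the chemokine Cxcl10 did not (0.52). Of the 7 other genes Phf11b and Ifi27l2a passed (range -0.10 to 1.56).

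In the same comparison, markers of several other cell types were lower in APP/PS1. Border-associated macrophage markers fell for 8 of 11 genes (summed 253 to 575 CPM in Control WT and 109 to 255 in Control APP/PS1), neutrophil markers for 5 of 10 (89.4 to 332 and 20.7 to 99.1 CPM), choroid plexus markers for 11 of 14 (1.65 to 2026 and 1.30 to 5.56 CPM, with 6 of 14 at 0 counts in Control APP/PS1) and monocyte markers for 2 of 9 (122 to 677 and 160 to 656 CPM). Oligodendrocyte markers fell for 4 of 9, and endothelial and mural markers fell for 4 of 10 and rose for 1. Markers of T and NK cells fell for 2 of 10 and those of neurons for 2 of 8. Among the other lists, of markers of B and plasma cells 0 of 7 passed (258 to 381 and 319 to 403 CPM), of plasmacytoid dendritic cells 2 of 9 rose and 1 fell (1225 to 1555 and 1315 to 1616 CPM), and of astrocytes 1 of 8 rose (129 to 710 and 148 to 582 CPM). Microglial markers fell for 4 of 9 (36223 to 41542 and 27376 to 31480 CPM). Their part in the member results was not tested.

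The second comparison asked the same of mice after knockdown. In Slc11a2KD mice, 13 members rose in APP/PS1 and 2 fell, where 9.77% of all genes rose and 6.41% fell. The median log2 fold change of the members was 0.46 against -0.07 over all genes, with 31 of 44 above 0 against 46.3% of all genes. The groups did not overlap for 8 members upward and 1 downward, against 4.18% and 2.88% of all genes. The 8 include Ifi44, which did not pass the test. The 6 members that rose in Control were 6 of the 13 here, and the 2 that fell were the same, Gbp3 and Gbp7. The comparisons share no samples.

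**Figure D3:**
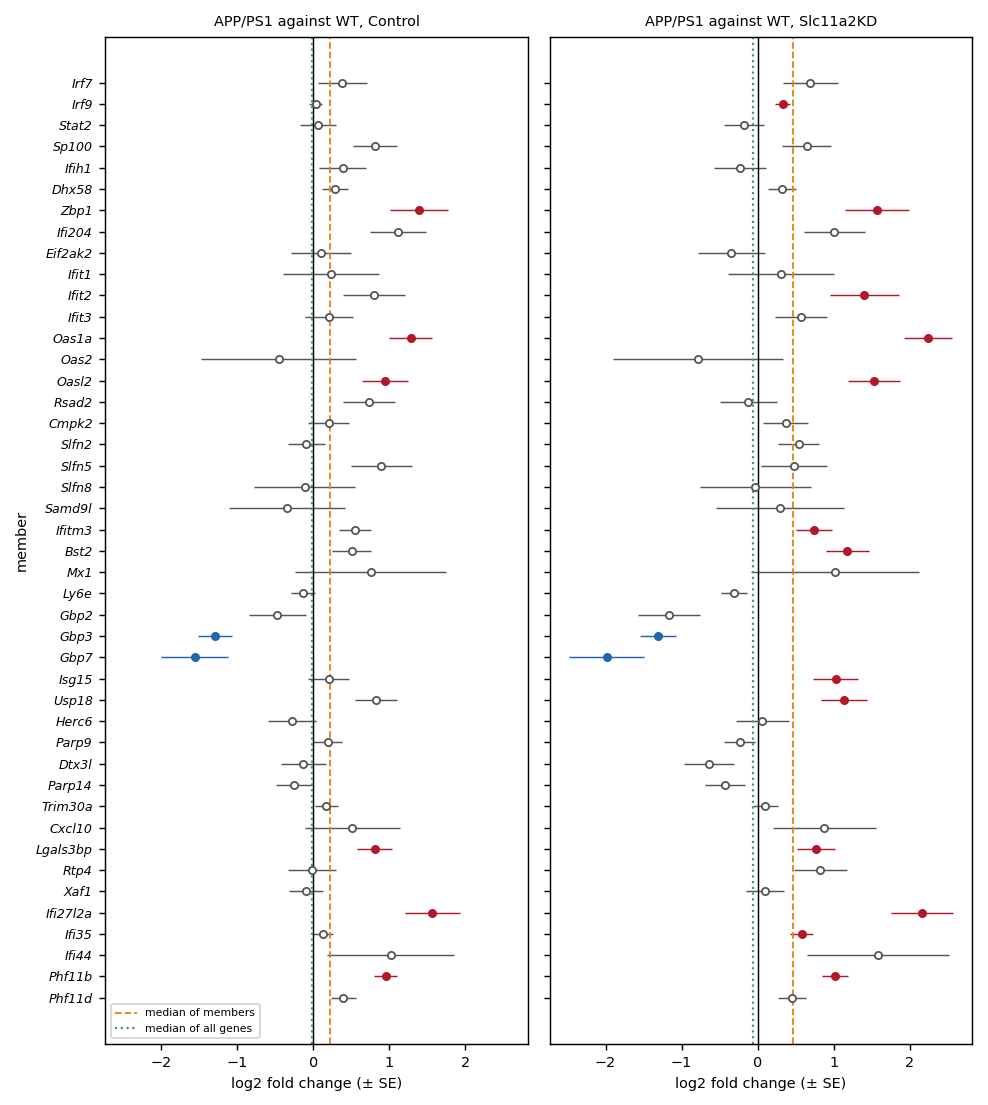
Log2 fold change (± SE) of each member for APP/PS1 against WT in Control (left) and in Slc11a2KD mice (right); filled red and blue points passed an adjusted p of 0.05, open points did not, and lines mark the medians of members and of all genes. The medians of the members are 0.22 and 0.46, and Gbp3 and Gbp7 are the filled points below 0 in both.

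This comparison leans on the run of library numbers, since 3 of 5 WT and 1 of 5 APP/PS1 libraries are numbered 1 to 4. Within the Slc11a2KD mice, with genotype in the model, 4 members were higher in libraries 18 to 23 than in 1 to 4 (Ifi27l2a 0.97, Oas1a 0.81, Bst2 0.71 and Ifitm3 0.63 on the log2 scale) and 5 lower (Slfn8 -2.71, Gbp7 -1.94, Dtx3l -1.31, Parp14 -1.13 and Parp9 -0.74), where 9.93% of all genes were higher and 8.91% lower. Each of these 4 higher members also rose with APP/PS1 here. Within libraries 18 to 23 alone (2 WT against 4 APP/PS1), 2 members rose, Oas1a (1.75 ± 0.32, edgeR adjusted p = 0.0231) and Ifi27l2a (1.41 ± 0.30, adjusted p = 0.0462), and 0 fell, where 1.68% of all genes rose and 0.41% fell. At an unadjusted p under 0.05 there were 9 members higher and 2 lower there, where 8.38% and 5.25% of all genes were, and DESeq2 and limma were not run on these 6 libraries. Libraries 1 to 4 hold 1 APP/PS1 sample and gave no separate value.

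Oas1a was 4.59, 4.11, 7.24, 15.0 and 7.61 CPM in Slc11a2KD WT 0001, 0002, 0003, 0019 and 0022. It was 29.0, 44.5, 31.6, 44.9 and 31.5 CPM in Slc11a2KD APP/PS1 0004, 0018, 0020, 0021 and 0023, each above every WT sample. The log2 fold change of 2.23 ± 0.32 was the largest among the members (adjusted p = 3.22e-05), and Oas1a was the 1 member of the 15 whose call was kept under every alternative tried. In the same order of libraries, Ifi27l2a was 11.1, 12.9, 18.8, 56.9 and 32.3 CPM in WT. It was 114, 118, 98.5, 166 and 94.6 CPM in APP/PS1, again with no overlap (log2 fold change 2.16 ± 0.41, adjusted p = 0.000831). The WT samples 0019 and 0022 were the highest of their group for Ifi27l2a.

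Oasl2 was 4.38, 3.63, 4.75, 3.51 and 2.42 CPM in WT and 17.9, 12.6, 5.86, 9.59 and 7.94 CPM in APP/PS1 (log2 fold change 1.53 ± 0.34, adjusted p = 0.00343). The highest APP/PS1 value was that of 0004, and the groups did not overlap. Zbp1 was 1.5, 2.30, 2.23, 3.22 and 1.09 CPM in WT and 6.53, 5.09, 6.57, 7.05 and 5.53 CPM in APP/PS1, also without overlap (1.57 ± 0.42, adjusted p = 0.0123). Ifit2, which binds RNA and blocks translation, was 3.67, 5.88, 5.80, 8.20 and 3.31 CPM in WT and 26.1, 15.98, 11.6, 8.29 and 8.87 CPM in APP/PS1. Its groups were barely apart, its log2 fold change was 1.40 ± 0.45 (adjusted p = 0.0378), and the call was lost without 0001, 0002, 0003, 0022, 0004, 0018 or 0020, at 1.06 to 1.47.

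Bst2, or tetherin, which holds budding virus to the cell surface, was 92.0, 58.1, 86.0, 164 and 127 CPM in WT and 188, 163, 230, 340 and 273 CPM in APP/PS1. The WT sample 0019 lay just above the lowest APP/PS1 sample, 0018 (log2 fold change 1.178 ± 0.29, adjusted p = 0.00660). Within libraries 18 to 23 its log2 fold change was 0.78 (adjusted p = 0.243). Usp18 was 8.66, 5.36, 5.56, 14.5 and 10.8 CPM in WT and 18.8, 18.5, 17.7, 23.96 and 19.3 CPM in APP/PS1, with no overlap (1.13 ± 0.30, adjusted p = 0.0121). Its value within libraries 18 to 23 was 0.65 (adjusted p = 0.296).

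Isg15, the ubiquitin-like protein that these enzymes conjugate and remove, was 9.28, 7.94, 6.16, 7.34 and 15.98 CPM in WT and 17.9, 14.7, 12.9, 28.3 and 21.3 CPM in APP/PS1. The groups overlapped through WT 0022, the log2 fold change was 1.03 ± 0.30 (adjusted p = 0.0195), and the call was lost without 0002, 0003 or 0021, at 0.83 to 0.97. Phf11b was 18.5, 16.7, 15.2, 26.6 and 32.9 CPM in WT and 46.6, 43.9, 47.5, 38.9 and 45.3 CPM in APP/PS1, with no overlap (1.02 ± 0.17, adjusted p = 0.000204). The WT libraries 0019 and 0022 were the highest of their group here too, and the log2 fold change within libraries 18 to 23 was 0.55 (adjusted p = 0.259). Lgals3bp was 193, 197, 191, 244 and 152 CPM in WT and 611, 333, 249, 248 and 215 CPM in APP/PS1 (0.76 ± 0.25, adjusted p = 0.0393). Library 0004 held by far the highest Lgals3bp value, without it the log2 fold change was 0.42, and the call was also lost without 0001, 0002, 0003, 0022 or 0018.

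The other members that rose did so by less. Ifitm3, which blocks virus fusion in endosomes, ran from 22.7 to 58.9 CPM in WT and from 53.2 to 79.9 CPM in APP/PS1 (0.74 ± 0.23, adjusted p = 0.0324). Its call was lost without 0001, 0002, 0003, 0020, 0021 or 0023, at 0.60 to 0.75. Ifi35, a cytosolic protein that binds NMI, ran from 39.2 to 60.8 and from 56.6 to 99.5 CPM (0.58 ± 0.15, adjusted p = 0.0101). Irf9, the DNA-binding part of ISGF3, ran from 69.0 to 89.5 and from 87.9 to 104 CPM (0.33 ± 0.10, adjusted p = 0.0221), and its call was lost without 0001, 0002, 0003, 0020 or 0021, at 0.29 to 0.32. Within libraries 18 to 23 the log2 fold change was 0.18 for Irf9 (adjusted p = 0.732), 0.35 for Ifitm3 (0.575) and 0.40 for Ifi35 (0.486). Of the members above it was 0.40 for Lgals3bp (0.536), 0.72 for Isg15 (0.518), 0.96 for Ifit2 (0.374), 1.49 for Zbp1 (0.206) and 1.59 for Oasl2 (0.0963), so these calls were lost there.

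Gbp3 was 18.7, 19.3, 27.6, 19.3 and 15.7 CPM in Slc11a2KD WT and 9.41, 9.02, 7.77, 4.77 and 9.61 CPM in Slc11a2KD APP/PS1. The groups did not overlap, and the log2 fold change of -1.31 ± 0.24 (adjusted p = 0.000616) was close to the -1.29 in Control. Gbp7 was 11.9, 15.8, 11.6, 3.49 and 2.33 CPM in WT and 4.97, 1.80, 1.17, 2.44 and 0.932 CPM in APP/PS1 (-1.99 ± 0.49, adjusted p = 0.00768). The WT libraries numbered 1 to 4 lay between 11.6 and 15.8 CPM and the pair numbered 18 to 23 at 3.49 and 2.33 CPM, within the APP/PS1 range. Within libraries 18 to 23 the log2 fold change of Gbp7 was -0.88 (adjusted p = 0.620), while that of Gbp3 was -1.17 (adjusted p = 0.119).

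**Figure D4:**
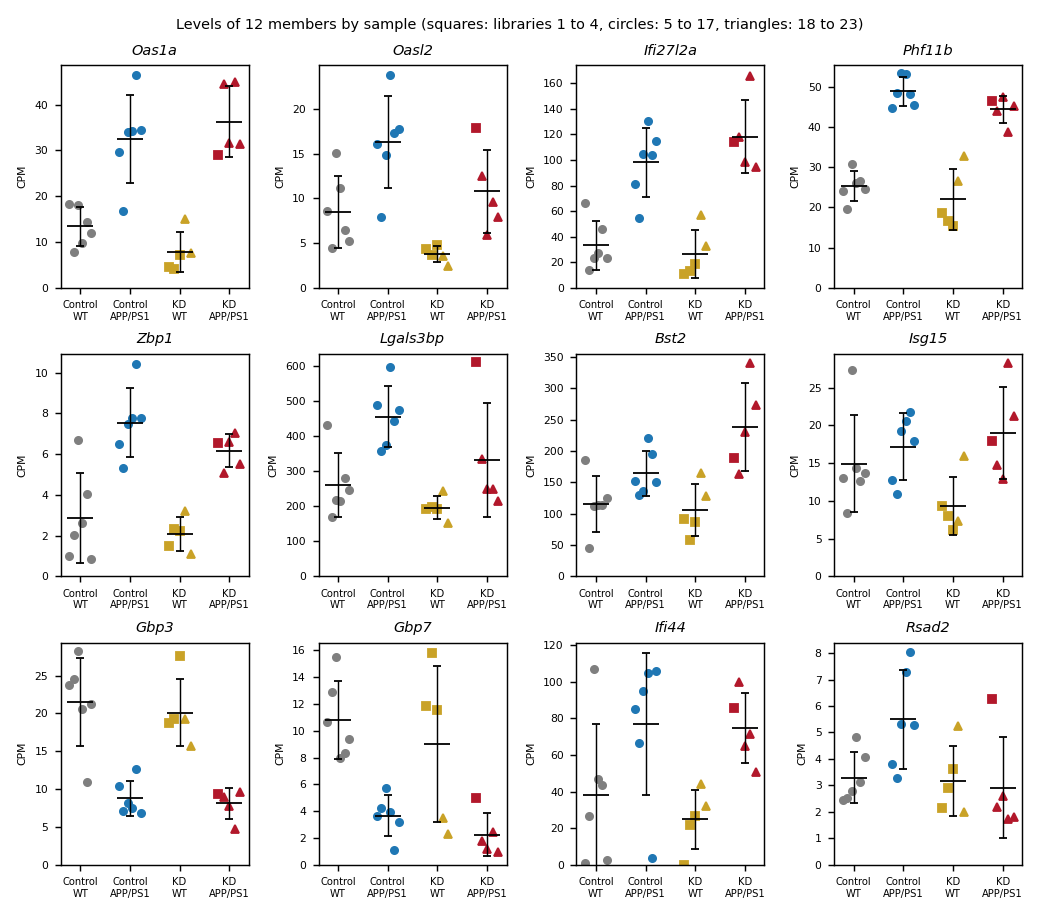
CPM of 12 members in each sample, with the group mean and SD in black; KD stands for Slc11a2KD, and marker shapes give the run of library numbers. Oas1a in Slc11a2KD APP/PS1 lies above every Slc11a2KD WT sample, Gbp7 in Slc11a2KD WT splits by run (11.6 to 15.8 against 2.33 to 3.49 CPM), and Ifi44 is under 4 CPM in 4 samples.

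By role, 1 of 4 transcription factors passed (Irf9), 1 of 5 sensors (Zbp1), 3 of 12 RNA and nucleotide effectors (Oas1a, Oasl2 and Ifit2), 2 of 4 membrane and capsid restriction genes (Bst2 and Ifitm3), 2 of 7 enzymes of ISG15, ubiquitin and ADP-ribose transfer (Usp18 and Isg15), 1 of 2 secreted proteins (Lgals3bp) and 3 of 7 other genes (Ifi27l2a, Phf11b and Ifi35). The ADP-ribose and ubiquitin partners Parp9, Dtx3l and Parp14 had log2 fold changes of -0.24, -0.64 and -0.43 and did not pass. Ifih1 was at -0.24 and Eif2ak2 at -0.35, both on the opposite side of 0 from Control and neither past the threshold. In this comparison 6 of 9 microglial, 3 of 11 border-associated macrophage and 2 of 10 neutrophil markers fell, and choroid plexus markers summed to 10.95 to 818 CPM in WT and 2.42 to 501 CPM in APP/PS1 with none past the threshold. Oligodendrocyte markers fell for 2 of 9 (944 to 3570 and 492.8 to 1209 CPM), endothelial and mural markers for 4 of 10 (137 to 267 and 89.5 to 138 CPM) and T and NK markers for 1 of 10, while neuronal markers summed to 7.63 to 15.3 and 4.96 to 6.77 CPM, without overlap and with 0 of 8 past the threshold. Of plasmacytoid dendritic cell markers 3 of 9 rose and 2 fell, of astrocyte markers 1 of 8 rose, of early response genes of tissue dissociation 2 of 18 rose, and of monocyte and of B and plasma cell markers 0 passed. The part of these lists in the member results was not tested.

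Whether the effect of APP/PS1 differed with knockdown was tested as an interaction. No member and no gene passed (0% in either direction, smallest adjusted p = 0.544 by edgeR), and DESeq2 and limma voom also called 0 members. At an unadjusted p under 0.05, 4 members were above 0 and 0 below, where 4.86% and 4.22% of all genes were. The count above 0 was 0 without 0021 or 0001, 1 without 0002, 0007 or 0009, 2 without 0003, 0005, 0006, 0015 or 0018, and 7 without 0008 or 0019. Without 0004 there were 2 above and 5 below 0. Without the WT libraries high in Ttr (0012, 0015, 0019 and 0022) there were 11 above and 1 below, with a term for libraries 18 to 23 there were 1 and 0, and without libraries 1 to 4 there were 0 and 2. With Control APP/PS1 0010 kept there were 0 and 0. For these other fits the shares of all genes are not given, so the counts show how the 4 moved and are not read as particular to the members. In the main fit the members with the smallest p, none of which passed, were Oas1a (0.95 ± 0.41), Irf9 (0.30 ± 0.13), Ifi35 (0.45 ± 0.20), Isg15 (0.82 ± 0.40) and Rtp4 (0.84 ± 0.47). The larger number of members called after knockdown is therefore not shown to differ from Control.

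The third comparison asked what knockdown did in WT mice. Of 44 members, 43 had a log2 fold change below 0 in Slc11a2KD WT against Control WT, against 47.5% of all genes, and the median was -0.35 against 0.01. None passed, and no gene did (0%, smallest adjusted p = 0.715 by edgeR), and DESeq2 and limma voom also called 0 members. At an unadjusted p under 0.05 there were 9 members below 0 and 0 above, where 2.86% and 3.06% of all genes were. The count below 0 was 3 without Control WT 0009 and 14 without Control WT 0008, and between 7 and 13 without any other single library. As the shares of all genes are not given for these leave-outs, the counts show only how the 9 moved. Oas2, the least abundant member, was the 1 with a value above 0 (0.50). By limma voom 41 of 44 were below 0, and 38 without the WT libraries high in Ttr. Members of this list share regulators and are not independent, and the Control and Slc11a2KD libraries were numbered in separate runs, so library run and knockdown cannot be told apart here.

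The 5 members with the smallest p, none past the threshold (adjusted p = 0.715 each), were Oasl2, Irf9, Ifit3, Ifit2 and Oas1a. Oasl2 ran from 4.42 to 15.1 CPM in Control WT (median 7.498), against 2.42 to 4.75 CPM in Slc11a2KD WT, at the values given above (log2 fold change -1.18 ± 0.33). Irf9 ran from 84.0 to 102 CPM (median 96.6) in Control WT and was 69.0, 76.0, 75.1, 89.5 and 78.6 CPM in Slc11a2KD WT (-0.28 ± 0.09). Just 0019 lay inside the Control range for Irf9.

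Ifit3, a partner of Ifit1 in RNA binding, ran from 9.34 to 47.7 CPM (median 18.3) in Control WT and was 8.86, 9.47, 11.9, 13.6 and 13.8 CPM in Slc11a2KD WT (-0.92 ± 0.34). Ifit2 ran from 3.34 to 33.1 CPM (median 8.60) in Control WT (-1.20 ± 0.44). For both, the Control maximum was 0009, and 4 of 5 Slc11a2KD samples lay inside the Control range. Oas1a ran from 7.89 to 18.3 CPM in Control WT and 4.11 to 15.0 CPM after knockdown (-0.80 ± 0.29).

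The run of library numbers mattered here for some members. Without libraries 18 to 23, leaving 3 Slc11a2KD WT libraries, the median of the members was -0.48 and 33 of 44 were below 0. Without libraries 1 to 4, leaving 2, it was -0.39 and 36 were below 0. No member passed in either case. At an unadjusted p under 0.05 there were 16 members below 0 and 0 above without libraries 18 to 23, where 7.71% and 5.41% of all genes were. Without libraries 1 to 4 there were 11 below 0 and 0 above, where 8.89% and 9.29% of all genes were. The counts need not hold the same members. Phf11b averaged 16.8 CPM in Slc11a2KD WT libraries 1 to 4 and 29.7 CPM in 18 to 23, against 25.3 CPM in Control WT. Parp14 went the other way, at 34.2 and 14.9 CPM against 32.4 CPM. Across role groups, every member of 7 of the 8 groups was below 0, the exception being Oas2 among the RNA and nucleotide effectors, and medians ran from -0.13 (guanylate-binding proteins) to -0.67 (RNA and nucleotide effectors). Marker sums of some other cell types also had lower medians in Slc11a2KD WT than in Control WT, from 539 to 156 CPM for astrocytes, from 401 to 222 CPM for monocytes and from 13652 to 10495 CPM for early response genes of tissue dissociation. The medians of choroid plexus (5.24 and 52.3 CPM) and oligodendrocyte markers (1220 and 2049 CPM) were higher, the choroid plexus sums ranging from 1.65 to 2026 and from 10.95 to 818 CPM, and 0 genes of these lists passed in this comparison. The part of these lists in the member results was not tested.

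**Figure D5:**
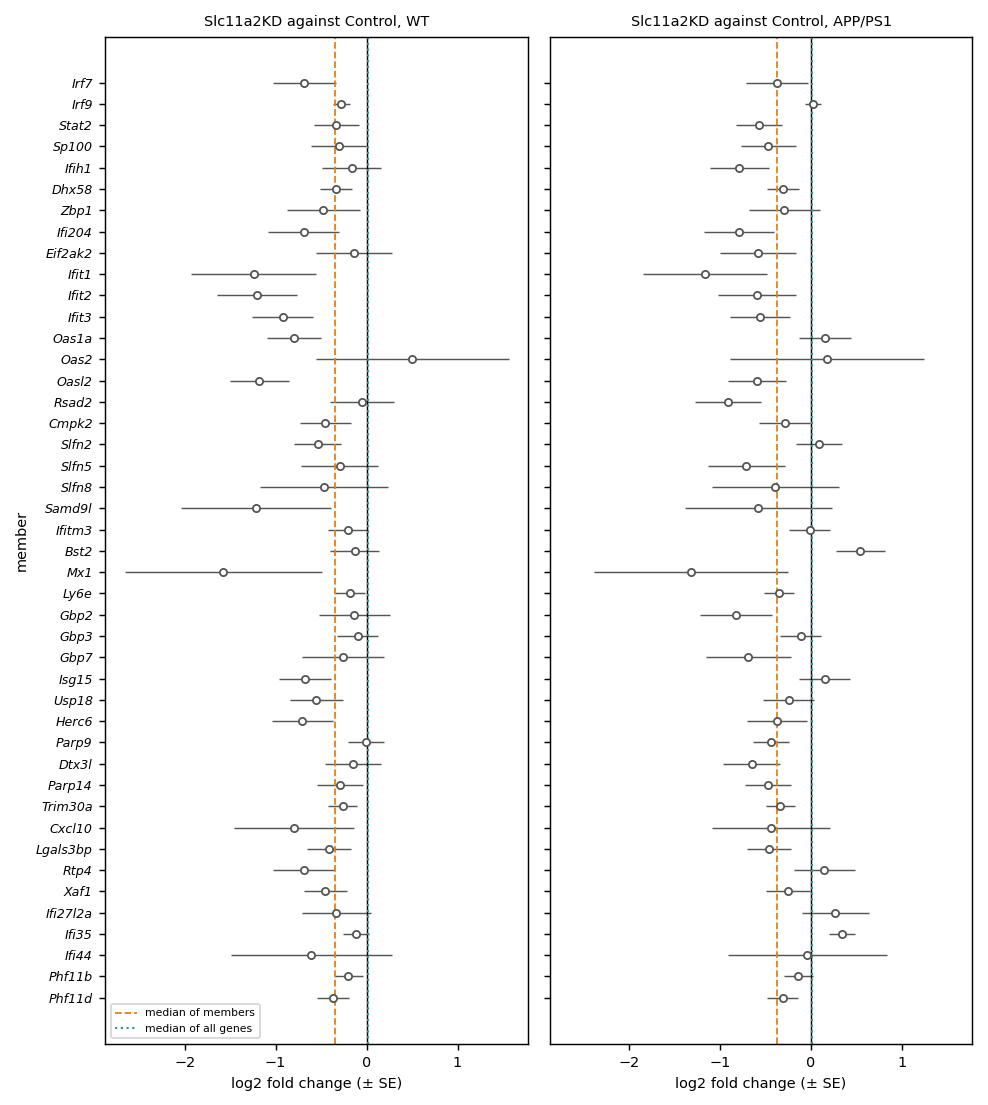
Log2 fold change (± SE) of each member for Slc11a2KD against Control in WT (left) and in APP/PS1 mice (right), drawn as for the genotype comparisons. Every point is open, since no member passed an adjusted p of 0.05, and the medians of the members are -0.35 and -0.38 against medians near 0 for all genes.

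The fourth comparison asked what knockdown did in APP/PS1 mice. The median log2 fold change of the members in Slc11a2KD APP/PS1 against Control APP/PS1 was -0.38 against 0.01 over all genes, with 35 of 44 below 0 against 49.0% of all genes. No member passed and no gene did (0%, smallest adjusted p = 0.205 by edgeR). DESeq2 and limma voom called 0 members too, where DESeq2 called 2.39% of all genes higher and 0.698% lower. At an unadjusted p under 0.05 there were 9 members below 0 and 1 above, where 9.74% and 10.8% of all genes were. The count below 0 was 0 without 0021, 1 without 0005 or 0023, 2 without 0016, 3 without 0020, 4 without 0013 or 0017, 6 without 0011, 8 without 0007 or 0018 and 20 without 0004. It was 3 with 0010 kept, 16 by limma voom, 1 with a term for libraries 18 to 23 and 19 without libraries 1 to 4. In the other alternatives it lay between 5 and 9. Shares of all genes at this threshold are not given for these other fits. The counts therefore show how the 9 moved, not a change particular to the members.

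The 5 members with the smallest p, none past the threshold, were Rsad2, Ifih1, Ifi35, Stat2 and Parp9. Rsad2, or viperin, which makes a chain-terminating nucleotide, ran from 3.27 to 8.04 CPM in Control APP/PS1 (median 5.29) and was 6.28, 2.17, 2.59, 1.74 and 1.80 CPM in 0004, 0018, 0020, 0021 and 0023 (-0.91 ± 0.36, adjusted p = 0.205). All but 0004 lay below every Control sample. Ifih1, the long double-stranded RNA sensor MDA5, ran from 13.9 to 25.8 CPM (median 20.3) and was 20.4, 15.4, 11.7, 7.08 and 2.38 CPM (-0.79 ± 0.33, adjusted p = 0.207). The value of 0004 was again the highest.

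Ifi35 was the 1 of these with higher values, from 50.9 to 64.2 CPM (median 57.2) in Control APP/PS1 and 56.6, 62.4, 70.4, 99.5 and 73.9 CPM after knockdown (0.34 ± 0.14, adjusted p = 0.209). Stat2, which joins ISGF3, ran from 5.92 to 15.3 CPM (median 13.2) and was 10.1, 9.33, 6.98, 6.08 and 6.97 CPM (-0.57 ± 0.25, adjusted p = 0.216). Parp9, which forms a complex with the ubiquitin ligase Dtx3l, ran from 40.3 to 57.7 CPM (median 48.5) and was 56.2, 38.2, 37.6, 21.7 and 24.9 CPM (-0.44 ± 0.20, adjusted p = 0.225). For Parp9 and Rsad2 the 4 libraries numbered 18 to 23 lay below the whole Control range.

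The count depended on 0004. Without it, 9 members fell and 1 rose, where 9.07% of all genes fell and 7.34% rose. Those that fell were Gbp2 (-1.49 ± 0.35, edgeR adjusted p = 0.0202), Rsad2 (-1.40), Ifih1 (-1.10), Dtx3l (-1.05), Lgals3bp (-0.80), Parp14 (-0.76), Parp9 (-0.66), Ly6e (-0.57) and Trim30a (-0.49), and Ifi35 rose (0.42 ± 0.14, adjusted p = 0.0492). The 4 libraries that then stood for the knockdown are all numbered 18 to 23, and Dtx3l, Parp14 and Parp9 were also lower in libraries 18 to 23 than in 1 to 4 within the Slc11a2KD mice as given above. Dtx3l was 31.9, 30.4, 38.7, 19.3 and 8.01 CPM in Slc11a2KD WT, with the lowest pair again 0019 and 0022, and 32.2, 16.04, 16.7, 8.05 and 9.19 CPM in Slc11a2KD APP/PS1. With a term for libraries 18 to 23 in the model and all samples kept, the median of the members in this comparison was -0.14 and 0 members passed.

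Choroid plexus markers summed to 1.30 to 5.56 CPM in Control APP/PS1 and 2.42 to 501 CPM in Slc11a2KD APP/PS1, with 0004 the lowest of its group. In the same groups the median sums were 420 and 108 CPM for astrocytes, 148 and 222 CPM for border-associated macrophages and 542.9 and 828.99 CPM for oligodendrocytes. Early response genes of tissue dissociation summed to 6749 to 13147 CPM in libraries 18 to 23 and 10495 to 14031 CPM in libraries 1 to 4, and 9 of these 18 genes were lower in the first. Their part in the member results was not tested.

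Several members varied within groups more than between them. Ifi44 was at 1.04 CPM in Control WT 0006, 2.66 in 0015, 3.51 in Control APP/PS1 0016 and 0.0238 in Slc11a2KD WT 0001, against 21.6 to 107 CPM in the other 18 samples. These 4 samples came from 3 of the 4 groups, and Ifi44 did not pass in any comparison. Slfn8, an RNA-cleaving Schlafen protein, ran from 0.409 to 16.96 CPM, with low values in Control WT 0015 (1.89), Control APP/PS1 0011 (1.04), Slc11a2KD WT 0019 (0.878) and 0022 (1.54), and Slc11a2KD APP/PS1 0020 (0.409). Cxcl10, the chemokine that draws CXCR3 T cells, ran from 3.80 to 89.8 CPM over all samples with wide overlap between groups.

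The rest of the pathway was read through lists of genes that are not members, whose counts stand against the shares of all genes given above (5.99% higher and 4.48% lower in Control, 9.77% and 6.41% in Slc11a2KD). Of 21 interferon ligands, 2 were in the table. Ifnb1, the main early type I interferon, was at 0 in 9 of the 22 samples and reached 1.71 CPM at most, and Ifng, the type II interferon, reached 0.949 CPM. Of 9 receptors and kinases, 1 rose and 1 fell with APP/PS1 in Control: Ifnar2, a chain of the type I receptor (0.32 ± 0.09, adjusted p = 0.0262), and Ifngr1, the ligand-binding chain of the interferon gamma receptor (-0.82 ± 0.10, adjusted p = 4.78e-06). In Slc11a2KD mice 1 fell, Ifngr1 again (-0.80 ± 0.11, adjusted p = 2.91e-05), and 0 rose. Ifngr1 had a mean of 826 CPM in Control WT and 468 in Control APP/PS1, and of 913 and 525 in Slc11a2KD WT and APP/PS1.

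Of 13 STATs and IRFs outside the members, Irf8, a lineage factor of microglia, rose (0.36 in Control, 0.36 in Slc11a2KD) and Irf4 fell (-1.39 and -1.31), joined in Slc11a2KD by Irf2 (-0.82). Of 24 genes of nucleic acid sensing and signalling, 2 rose and 4 fell in Control, and 1 rose and 7 fell in Slc11a2KD, against the same shares. Sting1, the adaptor that relays cytosolic DNA to interferon, fell in both (-0.84 ± 0.09, adjusted p = 1.14e-06, and -0.81 ± 0.10, adjusted p = 9.00e-06), as did Samhd1 (-0.58 and -0.85), a nucleotide hydrolase. Rnaseh2c, a subunit of RNase H2, rose in both (0.54 and 0.76). Of 13 negative regulators, Ptpn6 rose in both (0.53 and 0.49) and Pias1 fell in Slc11a2KD (-0.53).

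Of 98 other interferon-induced genes, 10 rose and 5 fell with APP/PS1 in Control (median 0.09), and 12 rose and 4 fell in Slc11a2KD (median 0.07). Over all genes 5.99% rose and 4.48% fell in Control (median -0.02), and 9.77% rose and 6.41% fell in Slc11a2KD (median -0.07). In Control the largest changes among those past the threshold were Sdc3 (1.90), Cd274 or PD-L1 (1.51), Phf11a (1.43), Tspo (1.04) and Tent5c (1.01) upward, and Ifi203 (-1.79), Ifi47 (-1.25), Gbp5 (-1.19), Ccl2 (-1.001) and Igtp (-0.36) downward. In Slc11a2KD, again among those past the threshold, they were Sdc3 (1.68), Cd274 (1.60), Tspo (1.38), Ube2l6 (1.21) and Ifi27 (1.16) upward, and Gbp5 (-1.32), Trim26 (-0.80), Trim30d (-0.49) and Lgals9 (-0.46) downward. In the knockdown comparisons and the interaction, 0 genes of these lists passed. The other interferon-induced genes had 72 of 98 values below 0 for knockdown in WT (median -0.13) and 61 of 98 in APP/PS1 (median -0.13), against 47.5% and 49.0% of all genes (median 0.01 in both).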

How the data were processed

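RNA of hippocampal CD11b+ cells from female mice was sequenced in bulk. The authors trimmed reads with Trim Galore 0.6.7 and Cutadapt, aligned them to mm39 with GENCODE annotation by STAR and deposited raw counts per gene; a second table of these counts divided by 1 size factor per sample was not used here. Columns were mapped to groups by their labels. Of 18876 genes, the 18759 that reached 5 counts in 3 or more of the 22 samples were tested with edgeR 4.0.16 (TMM scaling, quasi-likelihood test, 4 groups in 1 fit, R 4.3.3), with Benjamini-Hochberg adjustment over all genes. The paper's methods also name an absolute log2 fold change above 1, tried as an alternative. CPM are TMM-scaled; log2 CPM used a prior count of 2. A log2 fold change's SE is its size over the square root of F. Positions and promoters came from GENCODE M39 on GRCm39. Rows without a symbol (80) stayed in. Alternatives were DESeq2 1.42.0, its size factors in edgeR, limma voom 3.58.1, other filters (none, or at least 10 counts in every sample), 0010 kept, only the groups compared, a term for libraries 18 to 23, and leaving out high-Ttr WT libraries, library runs or single libraries. Scripts were tested on simulated data. The members and gene lists were chosen with earlier results of these data known. In each comparison every member past the threshold was named, and the 5 with the smallest p where none passed; the 3 most and 3 least abundant members and up to 5 list genes a direction were also named. Ifi44, Slfn8 and Cxcl10 were singled out for spread after their values were seen. From 23 libraries, 1 Control APP/PS1 library (0010) was left out of the comparisons, because the paper's methods removed an outlier of that group and 0010 is the labelled library absent from its heat map.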

Additional observations from a re-analysis of the deposited data

Results flagged for a closer look

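Single samples stood far from the rest of their group for 11 values (Dixon's test at the 95% level within groups of 5 or 6), among 176 member-by-group sets tested, where chance flags about 1 in 20. Control WT 0009 was high for Isg15, at 27.3 CPM against 14.4 or less in the others, for Irf7, the interferon-amplifying transcription factor, at 26.9 CPM against 12.8 or less, and for Herc6, the mouse ligase for ISG15, at 14.6 CPM against 8.69 or less. Irf7 was also high in Slc11a2KD WT 0019, at 18.3 CPM against 5.22 to 5.56 in the others. In Slc11a2KD APP/PS1, 0021 was high for Usp18 (23.96 CPM against 17.7 to 19.3) and for Slfn2, a Schlafen protein of T cells and macrophages (138 CPM against 62.6 to 71.5), and 0004 was high for Rsad2 (6.28 CPM against 1.74 to 2.59). In Control APP/PS1 the high samples were 0017 for Mx1 (2.38 CPM against 1.37 or less), 0011 for Xaf1 (65.0 CPM against 44.2 or less), 0005 for Parp14 (34.3 CPM against 27.9 or less) and 0013 for Samd9l (3.51 CPM against 1.83 or less). In Control APP/PS1 0010, the library left out of the comparisons, 13 of 44 members were above every Control WT sample, where 26.3% of all genes tested were. The same count in the other Control APP/PS1 libraries was 12 (0005), 3 (0007), 14 (0011), 18 (0013), 17 (0016) and 15 (0017), with 18.2% to 22.99% of all genes.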

How the results depend on the processing

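The median log2 fold change of the members kept its direction in the genotype and knockdown comparisons under every alternative run, while that of the interaction moved from 0.12 to -0.04 without libraries 1 to 4, -0.04 without 0009 and -0.01 without 0004, and lay between 0.05 and 0.24 without any other single library. For single members, 985 values kept their side of the threshold outside the leave-outs, 47 lost a call and 18 gained one, and no call reversed. In Control, the count of members higher in APP/PS1 was 12 by limma voom (11.1% of all genes higher), 10 with only the groups compared (11.3%), and 3 each without the WT libraries high in Ttr (5.30%) and with an absolute log2 fold change above 1 (2.80%). In Slc11a2KD it was 8 with only the groups compared (4.33%), 2 within libraries 18 to 23 (1.68%) and 1 without libraries 1 to 4 (2.60%). Members lower there numbered 4 by limma voom (10.4% of all genes lower), 5 without the WT libraries high in Ttr (12.6%), 1 each with only the groups compared (1.78%), with a term for libraries 18 to 23 (3.48%) and without libraries 1 to 4 (2.09%), and 0 within libraries 18 to 23 (0.41%). For knockdown in APP/PS1, 1 member was higher and 11 lower without libraries 1 to 4, where 9.21% and 12.7% of all genes were. Leaving out single libraries gave 4 to 8 members higher in Control. There were 4 without 0008 or 0013 (5.16% and 4.87% of all genes higher) and 8 without 0007 or 0009 (5.02% and 5.05%). The same leave-outs gave 1 to 2 lower in Control (1 without 0009 or 0016, with 3.93% and 3.65% of all genes lower), 8 to 16 higher (8 without 0002 or 0003, with 6.70% and 6.78% of all genes higher) and 2 to 6 lower in Slc11a2KD (4 without 0022 and 6 without 0004, with 10.5% and 12.6% of all genes lower), and 0 to 1 higher and 0 to 9 lower for knockdown in APP/PS1 (1 and 9 without 0004, with 7.34% and 9.07% of all genes). The cause was not tested. Of the members called, 3 of 8 in Control (Gbp3, Oas1a and Ifi27l2a) and 1 of 15 in Slc11a2KD (Oas1a) kept their call under every alternative and leave-out run for that comparison. Phf11b in Control kept its call in 12 of 12 leave-outs and 9 of 10 alternatives, and missed only the cut at an absolute log2 fold change above 1. Members under 1 CPM in most samples rest on few reads. No paired analysis was possible because the library numbers in the labels are unique to each sample and the groups share none.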
